A study of Homo sapiens with 18 samples.

Results

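The genes described here are the human zinc finger genes named ZNF and a number, taken with a symbol of ZNF, digits and at most 1 further letter and a mean raw count of at least 50 over the 8 vehicle libraries. Of 28063 genes listed, 533 symbols had that form and 306 met the minimum; the other 227 lay under it. The values the genes were chosen by are their vehicle counts. ZNF174, ZNF500 and ZNF853 fell just short at means of 47.75, 49.25 and 49.375 counts, and ZNF16, ZNF225 and ZNF876P just met it at 50.0, 50.375 and 50.375 counts. All 306 entered the tests across 12853 genes.

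Most of these genes encode C2H2 zinc finger proteins, in which each finger is a short fold held by 2 cysteines and 2 histidines around a zinc ion and strings of fingers read DNA. Many also carry a KRAB domain, which recruits TRIM28 (also called KAP1), the histone methyltransferase SETDB1 and heterochromatin proteins to silence transposable elements and genes, and the KRAB-ZNF genes themselves sit in large clusters, above all on chromosome 19, that carry heterochromatin marks in many cell types. SMARCA4 (BRG1) and SMARCA2 (BRM) are the alternative ATPases of the BAF (SWI/SNF) chromatin remodelling complexes, which open chromatin at enhancers and promoters.

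New RNA was measured in neuroblastoma cell lines by metabolic labelling with 4-thiouridine (4sU), a uridine analogue that growing cells build into RNA; label at 500 µM was present for 2 h before harvest, iodoacetate then changes the labelled bases so that sequencing reads them as conversions, and the counts are of labelled, polyadenylated RNA per gene. The treated groups were KELLY, IMR-32 and SK-N-DZ cells, all established human neuroblastoma lines, with BRM014 at 1 µM, an inhibitor of the ATPases of SMARCA4 and SMARCA2, and IMR-32 cells whose SMARCA4 carries a mini auxin-inducible degron (SMARCA4-mAID) with auxin (indole-3-acetic acid) at 500 µM, which sends the tagged protein to degradation. Their references were the same 3 lines with DMSO and the SMARCA4-mAID line with ethanol. Each of these 8 groups held 2 libraries, and 2 further KELLY libraries had no label. The length of exposure, whether a group's 2 libraries are from different cultures, and whether the SMARCA4-mAID line is a single clone were not given in the sources used here, so a p-value measures only the spread between libraries, which may be technical.

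Labelled libraries held 724913 to 1740475 counts in genes, and 13327 to 15279 genes had at least 1. Depth went with treatment in IMR-32 (741970 and 775064 with BRM014, against 1438139 and 1148208 with DMSO) and in SK-N-DZ (724913 and 758288 with BRM014, against 1589230 and 1740475 with DMSO), so counts of called genes were also taken after thinning every library to the lowest total. SMARCA4 RNA stood at 663 and 607 CPM (counts scaled to a common library size by the trimmed mean of M values, TMM) with auxin and 752 and 867 CPM with ethanol, a log2 fold change of -0.35 (adjusted p = 0.109); auxin acts on the protein, so this does not check the labels. The parental IMR-32 line had 90.4 and 107 CPM of SMARCA4 with DMSO. Of 7 adrenergic neuroblastoma markers at least 5 had counts in every labelled group, at a summed 1580 to 4130 CPM per library. DBH and TH were at 0 in IMR-32 with BRM014 and in both SMARCA4-mAID groups, and TH was at 0 in SK-N-DZ with BRM014. In the other labelled groups, parental IMR-32 and SK-N-DZ with DMSO among them, all 7 had a count. The 5 Schwann lineage markers summed to 0.644 to 12.1 CPM with S100B at 0 in all groups. The adrenergic sum lay apart between the groups in KELLY (3430 to 3520 CPM with BRM014 and 2960 to 3150 CPM with DMSO), in SK-N-DZ (3640 to 4130 and 3430 to 3590 CPM) and with auxin (1670 to 2010 CPM, against 1580 to 1610 CPM with ethanol), and overlapped in IMR-32. A list of 7 mesenchymal markers lay apart in every comparison. Its sum was lower with BRM014 in IMR-32, at 264 to 282 CPM, against 345 to 363 CPM with DMSO (PRRX1, FOSL1 and COL1A1 at 0 in both). It was higher with BRM014 in KELLY, at 484 to 499 CPM (PRRX1, FOSL1, YAP1 and COL1A1 at 0), against 174 to 221 CPM with DMSO (FOSL1 and YAP1 at 0). In SK-N-DZ it was 369 to 433 CPM with BRM014 (the same 4 at 0) and 333 to 354 CPM with DMSO (PRRX1 and COL1A1 at 0), and in the SMARCA4-mAID line 387 to 421 CPM with auxin (PRRX1, FOSL1 and COL1A1 at 0) and 304 to 331 CPM with ethanol (PRRX1 at 0). The part of these lists in the ZNF results was not tested. In bulk RNA, fewer cells of a type and less RNA per cell cannot be told apart. The unlabelled KELLY libraries held 283 counts of the ZNF genes, which is 0.337% of the 83869 in the DMSO libraries, and 248 of the 306 genes had no count there.

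As a group the ZNF genes took a near constant share of new RNA. They made up 3.48% and 3.49% of all counts in IMR-32 with BRM014, against 3.64% and 3.65% with DMSO. In KELLY the share was 3.05% in each BRM014 library and 3.03% and 2.89% in the DMSO libraries, and in SK-N-DZ it was 3.23% and 3.16% with BRM014 and 3.28% and 3.13% with DMSO. The SMARCA4-mAID line had 3.89% and 3.76% with auxin and 3.87% and 3.86% with ethanol. The shares of treated and vehicle libraries overlapped in SK-N-DZ and in the SMARCA4-mAID line and lay slightly apart in IMR-32 and KELLY.

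Within that near constant total, single genes moved both ways. A gene is called higher or lower here where edgeR's quasi-likelihood test gave a Benjamini-Hochberg adjusted p under 0.05 over all genes tested. Averaged over the 3 lines, 48 ZNF genes rose and 44 fell with BRM014, together 30.1% of the 306, against 30.2% of all genes tested. Among the called genes, the highest mean effects were in ZNF287 (log2 1.01), ZNF280D (0.98) and ZNF217 (0.87), and the lowest in ZNF536 (-2.52, which takes in a line with almost no counts of it and was -1.29 without 1 library), ZNF367 (-1.24) and ZNF232 (-1.10). Over all genes tested 14.8% rose and 15.3% fell; among the 6716 with the same vehicle minimum 42.6% were called. The median log2 change of the ZNF genes was -0.06 and that of all genes -0.04. With a correction for transcript GC content and length the split became 21 higher and 101 lower, beside 8.69% higher and 15.5% lower of all genes under that correction, as described with the composition of the genes below.

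By line, 16 ZNF genes rose and 29 fell in IMR-32 with BRM014, which is 14.7% of them beside 12.8% of all genes. In KELLY 30 rose and 11 fell, 13.4% beside 11.6%. SK-N-DZ had 24 higher and 26 lower, 16.3% beside 19.4% (9.88% higher and 9.55% lower over all genes). With auxin 1 rose (ZNF217) and 1 fell (ZNF574), 0.654% beside 2.19% (1.03% higher and 1.16% lower over all genes). Among the 6716 genes with the same vehicle minimum the shares called were 20.0%, 17.2%, 29.4% and 3.62% for IMR-32, KELLY, SK-N-DZ and auxin. IMR-32 had more lower than higher calls and KELLY more higher than lower, a difference in balance that was not tested between lines; over all genes 6.26% rose and 6.57% fell in IMR-32, and 6.57% rose and 4.98% fell in KELLY. Under the GC and length correction each line had more lower than higher calls. IMR-32 had 10 higher and 47 lower, beside 4.08% and 7.31% of all genes. KELLY had 9 higher and 21 lower, beside 4.11% and 5.49%. SK-N-DZ had 14 higher and 63 lower, beside 5.06% and 9.32%. With auxin it left 1 higher and 0 lower in edgeR (7 and 20 at an unadjusted p under 0.05), beside 0.965% and 1.24%. Unchanged genes also reach an unadjusted p under 0.05, and the share of all genes that did so was not taken. Such unadjusted counts, here and below, do not by themselves show a change. After thinning to equal depth the counts were 16 higher and 25 lower for IMR-32, 17 and 8 for KELLY, and 27 and 26 for SK-N-DZ. Leaving out 1 library took the IMR-32 lower count to between 13 and 22. In KELLY it left 7 higher and 6 lower without the first BRM014 library, 18 and 6 without the second, 15 and 5 without the first DMSO library and 12 and 11 without the second. The excess of higher calls was thus 1 gene without either the first BRM014 or the second DMSO library.

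**Figure D1:**
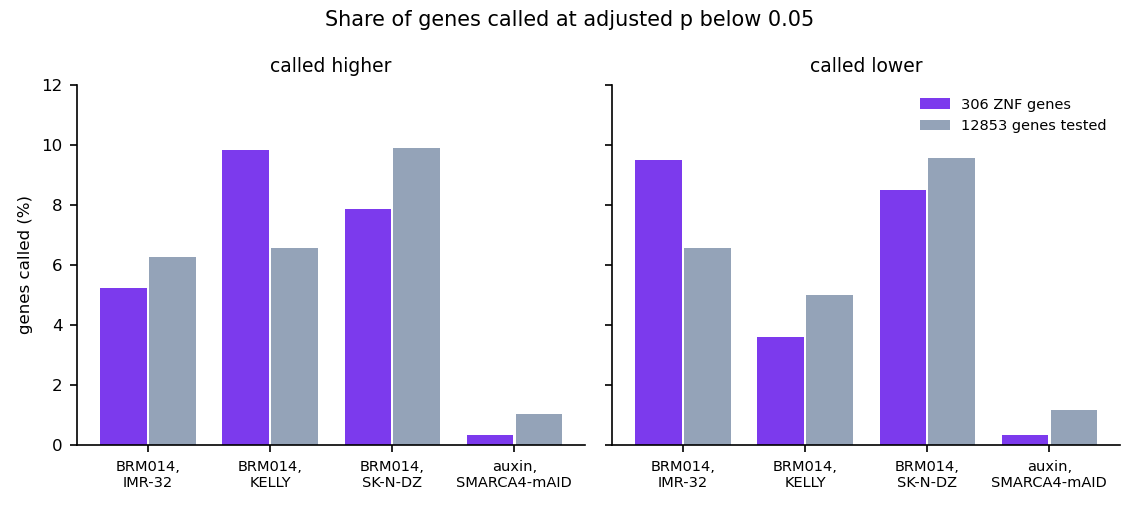
Share of genes called higher (left) and lower (right) at an adjusted p under 0.05 in each treatment comparison, in percent, for the 306 ZNF genes and for the 12853 genes tested. The ZNF share lies above that of all genes for lower calls in IMR-32 and higher calls in KELLY, and below it in the other comparisons.

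**Figure D2:**
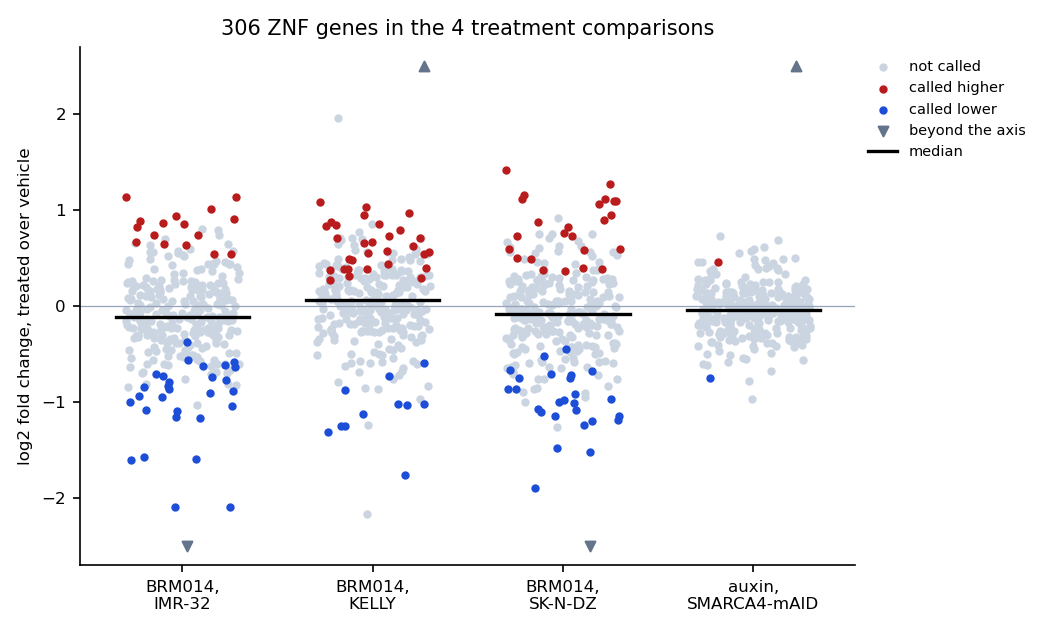
Log2 fold change of each of the 306 ZNF genes, treated over vehicle, in the 4 comparisons; each point is a gene, coloured where called, black lines are medians, and triangles mark 4 genes beyond the axis, none of them called (ZNF239 at -4.93 in IMR-32, ZNF578 at 2.80 in KELLY, ZNF536 at -3.69 in SK-N-DZ and ZNF727 at 4.72 with auxin). The medians lie between -0.11 and 0.06, and the auxin points stay closest to 0.

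Of the 306 genes, 98 were called in at least 1 line, beside 29.4% of all genes, and 208 in none. Those that moved the same way in all 3 lines were few. ZNF217, ZNF287, ZNF326 and ZNF516 rose in each, 4 of 306 genes beside 1.84% of all genes tested, and ZNF367 fell in each, 1 of 306 beside 1.42%. A further 14 rose in exactly 2 lines and 30 in exactly 1, beside 3.66% and 9.87% of all genes. Another 13 fell in exactly 2 and 37 in exactly 1, beside 3.49% and 9.89%. Only ZNF608, among the 306, was called in opposite directions in different lines. These sets are those without the GC and length correction. Under it ZNF141 was called lower in each line (log2 -0.85 in IMR-32, -0.455 in KELLY and -0.665 in SK-N-DZ). Without it ZNF141 was called in IMR-32 alone of the lines (-0.56, leave-outs -0.61 to -0.53).

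These 5 genes are shown by their promoters, since they are the ones that moved together. Each sequence runs 5′ to 3′ along the gene from 250 bases before the RefSeq start site to 50 bases after it, on GRCh38.p14. The start used is the 1 in RefSeq's promoter table, which for ZNF217, ZNF287 and ZNF516 lies inside the gene span given for them and not at its end. The table has 2 overlapping windows for ZNF287, of which the first listed is shown. Capitals mark a CCAAT box, the site of the NF-Y factor, read on either strand (ATTGG is CCAAT on the opposite strand).
ZNF217 (chr20:53593790-53594089, minus strand): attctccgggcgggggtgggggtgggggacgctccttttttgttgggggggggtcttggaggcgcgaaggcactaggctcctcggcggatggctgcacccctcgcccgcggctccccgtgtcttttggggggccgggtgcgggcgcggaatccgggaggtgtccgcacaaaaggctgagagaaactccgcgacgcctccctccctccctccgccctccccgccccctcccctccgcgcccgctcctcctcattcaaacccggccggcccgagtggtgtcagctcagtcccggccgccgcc
ZNF287 (chr17:16569155-16569454, minus strand): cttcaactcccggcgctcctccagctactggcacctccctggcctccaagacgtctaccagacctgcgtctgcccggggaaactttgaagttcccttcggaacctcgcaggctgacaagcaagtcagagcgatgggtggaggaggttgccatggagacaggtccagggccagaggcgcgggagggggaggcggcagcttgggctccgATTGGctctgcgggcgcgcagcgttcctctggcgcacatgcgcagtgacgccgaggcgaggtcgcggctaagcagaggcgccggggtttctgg
ZNF326 (chr1:89994860-89995159, plus strand): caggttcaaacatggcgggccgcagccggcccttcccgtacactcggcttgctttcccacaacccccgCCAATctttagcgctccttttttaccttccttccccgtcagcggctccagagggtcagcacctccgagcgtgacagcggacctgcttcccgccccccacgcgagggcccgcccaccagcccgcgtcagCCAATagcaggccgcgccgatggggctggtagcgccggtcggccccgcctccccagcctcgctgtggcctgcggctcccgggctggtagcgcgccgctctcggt
ZNF516 (chr18:76495193-76495492, minus strand): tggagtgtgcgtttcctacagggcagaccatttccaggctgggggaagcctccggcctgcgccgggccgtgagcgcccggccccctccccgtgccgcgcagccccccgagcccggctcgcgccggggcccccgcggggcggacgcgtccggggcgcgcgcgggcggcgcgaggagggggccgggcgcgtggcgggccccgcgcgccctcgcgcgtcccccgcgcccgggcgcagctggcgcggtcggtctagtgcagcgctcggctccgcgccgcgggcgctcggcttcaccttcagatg
ZNF367 (chr9:96418321-96418620, minus strand): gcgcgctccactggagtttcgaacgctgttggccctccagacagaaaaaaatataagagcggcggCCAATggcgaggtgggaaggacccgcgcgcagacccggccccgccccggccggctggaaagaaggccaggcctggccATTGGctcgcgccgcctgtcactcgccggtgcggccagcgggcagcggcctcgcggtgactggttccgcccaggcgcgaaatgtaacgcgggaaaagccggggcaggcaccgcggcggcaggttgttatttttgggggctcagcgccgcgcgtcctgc
The windows of ZNF326 and ZNF367 each held 2 CCAAT matches, that of ZNF287 held 1, and those of ZNF217 and ZNF516 held none; no window of the 5 held CACGTG (the E-box), TGACTCA (the AP-1 site) or AAGATGG (the YY1 motif), and absence says only that these letters are not in the window. Among 272 ZNF genes with a promoter in the table, CCAAT was found on either strand in 47.4%, against 35.7% of the 27305 promoters listed. The same share was 56.9% where the encoded protein matched the KRAB pattern. CACGTG stood in 5.51% of ZNF promoters and 7.43% of all, TGACTCA in 2.21% and 4.92%, and AAGATGG in 8.46% and 6.06%. These are counts of letters in windows of 300 bases, not of bound sites.

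ZNF217 (chr20:53567071-53597702), an oncogene amplified in several cancers whose protein works with the CoREST and CtBP co-repressors, had the smallest adjusted p of the ZNF genes in IMR-32, in SK-N-DZ and with auxin. It stood at 1048 and 1056 CPM in IMR-32 with BRM014, against 451 and 505 CPM with DMSO, a log2 change of 1.14 (SE 0.11, adjusted p = 2.4e-14). In SK-N-DZ it had 872 and 866 CPM with BRM014 and 446 and 366 CPM with DMSO, a change of 1.10 (SE 0.11, adjusted p = 4.38e-14). The groups lay far apart in both lines. In KELLY the values were 410 and 409 CPM with BRM014 and 366 and 258 CPM with DMSO, a smaller change of 0.38 (SE 0.11, adjusted p = 0.012). That KELLY call was lost without either BRM014 library or the second DMSO library, over a range of 0.16 to 0.67, and under the GC and length correction (0.17). Auxin brought ZNF217 to 651 and 658 CPM, against 484 and 472 CPM with ethanol, a change of 0.45 (SE 0.11, adjusted p = 0.00521), which was lost without either ethanol library or the second auxin library at changes of 0.43 to 0.47. It was the only ZNF gene called higher in all 4 comparisons.

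ZNF287 (chr17:16546954-16569212), with 14 fingers found in its coding sequence, had 116 and 118 CPM in IMR-32 with BRM014 and 70.6 and 55.8 CPM with DMSO (log2 0.88, SE 0.25, adjusted p = 0.00949). Its KELLY values were 71.2 and 72.4 CPM with BRM014 and 22.8 and 46.4 CPM with DMSO (1.09, SE 0.26, adjusted p = 0.00128). In SK-N-DZ it reached 109 and 152 CPM with BRM014, against 71.3 and 53.4 CPM with DMSO (1.07, SE 0.24, adjusted p = 0.000329). The 3 changes are of like size and treated and vehicle libraries did not overlap. The IMR-32 call was lost without either BRM014 library or the second DMSO library (0.72 to 1.06), and the KELLY call without the first DMSO library (0.63 to 1.65 over the leave-outs). With auxin the values were 133 and 169 CPM, against 119 and 102 CPM with ethanol, a change of 0.45 that missed the threshold (adjusted p = 0.376).

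ZNF326 (chr1:89995110-90035533) encodes a subunit of the DBIRD complex, which links elongating RNA polymerase II to splicing. It had 575 and 656 CPM in IMR-32 with BRM014 and 343 and 397 CPM with DMSO, and rose by 0.74 (SE 0.13, adjusted p = 7.28e-06). Levels were lower in the other lines, at 150 and 171 CPM with BRM014 and 107 and 99.6 CPM with DMSO in KELLY (0.63, adjusted p = 0.00106) and 153 and 163 CPM with BRM014 and 86.8 and 104 CPM with DMSO in SK-N-DZ (0.73, adjusted p = 0.000245). The rise was thus similar at high and low starting level, and each call held whichever library was left out. Under the GC and length correction the changes shrank to 0.34, 0.23 and 0.16 and no longer passed in any single line. The auxin libraries stood at 325 and 324 CPM, against 282 and 294 CPM with ethanol (0.17, adjusted p = 0.689).

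ZNF516 (chr18:76357682-76496419), which in mouse works with PRDM16 to turn on brown fat genes, stood at 243 and 152 CPM in IMR-32 with BRM014 and 113 and 123 CPM with DMSO (0.74, SE 0.19, adjusted p = 0.00261). KELLY had 223 and 210 CPM with BRM014 and 137 and 101 CPM with DMSO (0.85, SE 0.17, adjusted p = 7.9e-05), and SK-N-DZ 201 and 208 CPM with BRM014 and 111 and 112 CPM with DMSO (0.87, SE 0.18, adjusted p = 8.54e-05). Only the first IMR-32 BRM014 library was far above its group partner, and without it, or without the first DMSO library, the IMR-32 call was lost (0.33 to 1.01). All 3 calls passed under the GC and length correction. With auxin it had 146 and 172 CPM, against 130 and 138 CPM with ethanol (0.25, adjusted p = 0.639).

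ZNF367 (chr9:96385941-96418370) was the reverse case and fell in every line. It had 122 and 142 CPM in IMR-32 with BRM014, against 304 and 292 CPM with DMSO (log2 -1.17, SE 0.17, adjusted p = 1.02e-07). In KELLY it stood at 46.4 and 72.4 CPM with BRM014 and 127 and 116 CPM with DMSO (-1.03, SE 0.18, adjusted p = 6.18e-06), and in SK-N-DZ at 73.1 and 97.3 CPM with BRM014 and 226 and 264 CPM with DMSO (-1.52, SE 0.18, adjusted p = 5.76e-11). The groups did not overlap in any line, and the calls held in every leave-out and under the correction. With auxin the values were 213 and 252 CPM, against 287 and 272 CPM with ethanol, a change of -0.26 (adjusted p = 0.524).

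**Figure D3:**
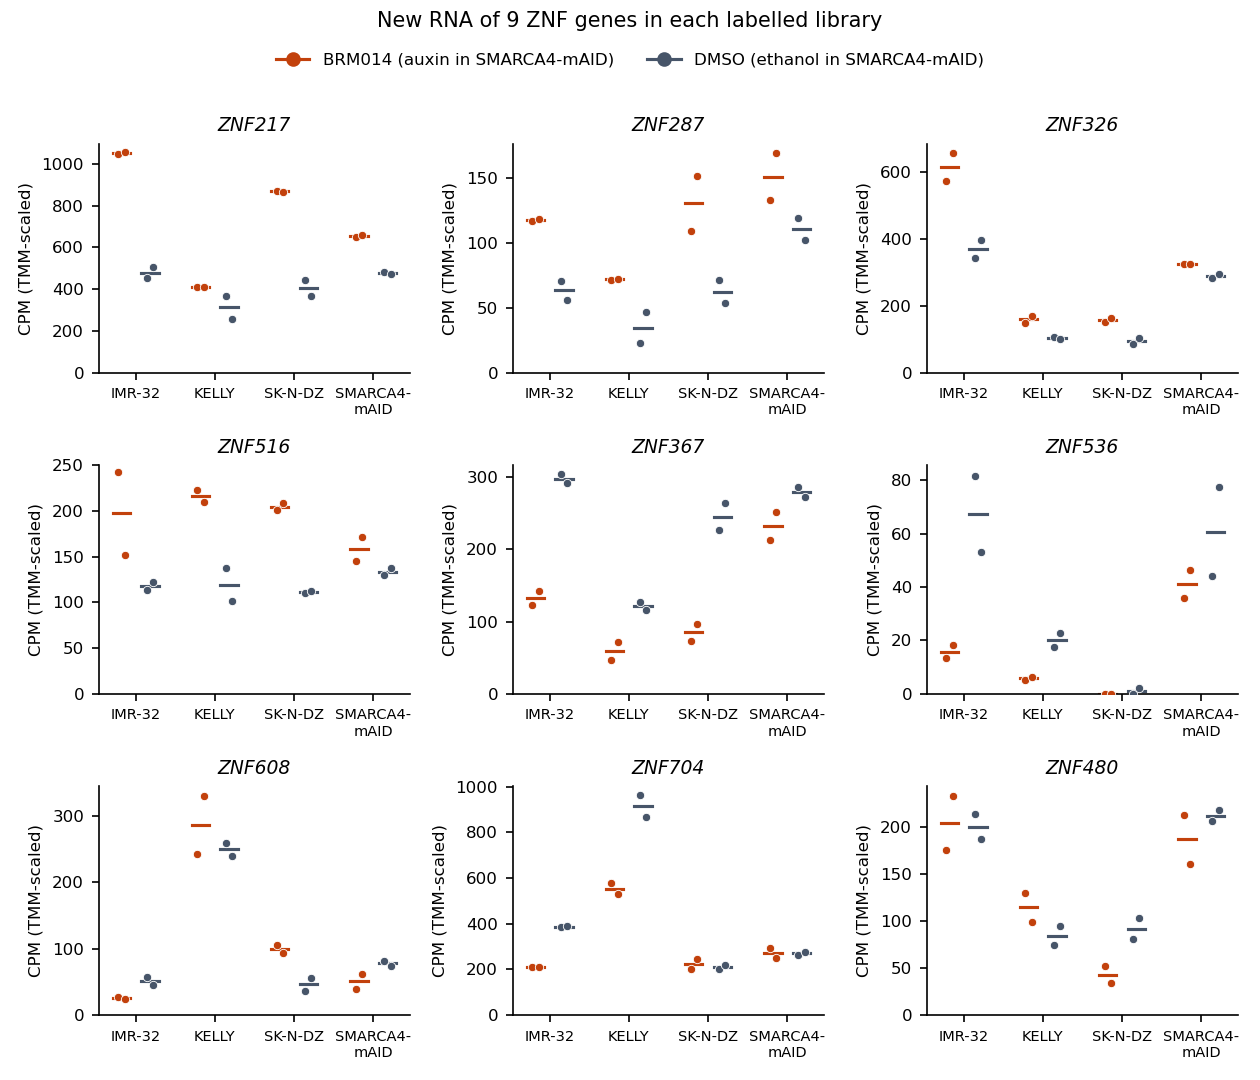
TMM-scaled CPM of 9 ZNF genes in each labelled library of the 4 cell lines; points are libraries (2 per group), bars their means, treated groups left of their vehicle groups. ZNF217, ZNF287, ZNF326 and ZNF516 lie higher with BRM014 in all 3 lines, ZNF367 lies lower in all 3, and ZNF608, ZNF704 and ZNF480 move in some lines and not in others.

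Other ZNF genes moved in IMR-32 with BRM014 without a call in every line. ZNF536 (chr19:30225592-30713586), a brain-enriched repressor of neuronal differentiation, had 13.3 and 18.3 CPM with BRM014, against 81.6 and 53.1 CPM with DMSO (-2.09, SE 0.46, adjusted p = 0.000472). In KELLY the values were 5.23 and 6.40 CPM with BRM014 and 17.4 and 22.8 CPM with DMSO (-1.76, SE 0.51, adjusted p = 0.0109), a call lost without the first BRM014 or the second DMSO library (-1.95 to -1.56). SK-N-DZ had no count with BRM014 and 0 and 2.20 CPM with DMSO, too few for a fold; its mean effect over the lines, -2.52, takes in that line, was not called without the second SK-N-DZ DMSO library, and went to between -2.81 and -1.29 over the leave-outs. ZNF530 (chr19:57599885-57612722) had 28.0 and 25.3 CPM in IMR-32 with BRM014 and 81.6 and 80.5 CPM with DMSO (-1.60, SE 0.32, adjusted p = 0.000117), and held in every leave-out. ZNF703 (chr8:37695782-37700019), a transcriptional co-factor amplified in luminal breast cancer, rose in IMR-32 to 287 and 308 CPM with BRM014, against 162 and 176 CPM with DMSO (0.82, SE 0.18, adjusted p = 0.000611), in every leave-out.

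Several of the larger IMR-32 changes rested on few counts, those of ZNF536 and ZNF530 above among them. ZNF93, given below, had higher levels than either. ZNF274 (chr19:58183061-58213562), whose protein brings SETDB1 to the 3′ ends of ZNF genes, had 4.42 and 9.83 CPM with BRM014 and 37.5 and 23.8 CPM with DMSO (-2.09, SE 0.53, adjusted p = 0.00274), and its call was lost without the first BRM014 or the first DMSO library (-2.82 to -1.68). ZNF598 (chr16:1997654-2009821), a ubiquitin ligase that marks collided ribosomes, stood at 11.8 and 7.02 CPM with BRM014 and 36.8 and 18.3 CPM with DMSO (-1.57, SE 0.49, adjusted p = 0.0213); the call was lost without the second BRM014 or first DMSO library (-2.02 to -0.97) and under the correction (-1.19). ZNF93 (chr19:19900946-19935575), a repressor of L1 retrotransposons, had 53.0 and 53.4 CPM with BRM014, against 127 and 110 CPM with DMSO (-1.15, SE 0.29, adjusted p = 0.00279), lost without the first DMSO library (-1.25 to -1.05). ZNF768 and ZNF700 also fell, by 1.59 and 1.10 on the log2 scale; ZNF768 lost the call without either BRM014 or the second DMSO library (-2.08 to -0.99) and under the correction (-1.21), and ZNF700 without the second BRM014 or first DMSO library (-2.54 to -0.42).

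Rises in IMR-32 beyond those shared by the lines were led by ZNF280D (chr15:56630176-56733509), a human relative of the fly insulator protein suppressor of Hairy wing. It had 133 and 200 CPM with BRM014 and 77.2 and 74.1 CPM with DMSO (1.13, SE 0.24, adjusted p = 0.000295), lost without the second BRM014 library (0.77 to 1.36). In SK-N-DZ it stood at 66.5 and 101 CPM with BRM014, against 27.0 and 35.8 CPM with DMSO (1.41, SE 0.27, adjusted p = 3.14e-05), in every leave-out, and its KELLY change of 0.38 was not called (adjusted p = 0.386). Its neighbour in sequence ZNF280C (chrX:130202707-130268899) had 82.4 and 87.2 CPM in SK-N-DZ with BRM014 and 36.5 and 41.3 CPM with DMSO (1.12, SE 0.25, adjusted p = 0.000297), again in every leave-out. ZNF280C rose by 0.67 in IMR-32 (adjusted p = 0.0204), lost without either BRM014 or the first DMSO library (0.46 to 0.88) and under the correction (0.38). Other IMR-32 rises, in ZNF429, ZNF484, ZNF514, ZNF527 and ZNF490, were of 0.86 to 1.01 on the log2 scale, and each lost its call without at least 2 of the 4 libraries, over leave-out ranges from 0.30 (ZNF490) to 1.44 (ZNF527); only ZNF514 of these 5 was called under the correction.

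In KELLY the calls that held in every leave-out were those of ZNF248, ZNF275, ZNF326, ZNF367, ZNF516 and ZNF704 among the genes named by the rule. ZNF248 (chr10:37758538-37858103), a KRAB-pattern gene, had 166 and 144 CPM with BRM014 and 88.7 and 83.7 CPM with DMSO (0.84, SE 0.19, adjusted p = 0.000451). ZNF275 (chrX:153334153-153352926) stood at 19 and 16 CPM with BRM014, against 38.4 and 49.4 CPM with DMSO (-1.31, SE 0.31, adjusted p = 0.00116), the lowest ZNF change called in that line apart from ZNF536. ZNF275 also fell in SK-N-DZ, at 43.9 and 44.2 CPM with BRM014 and 102 and 76.0 CPM with DMSO (-1.01, adjusted p = 0.00474), a call lost without the first DMSO library (-1.22 to -0.76). The KELLY rises of ZNF703 (1.04, leave-outs 0.55 to 2.00), ZNF624 (0.97, 0.60 to 1.56), ZNF558 (0.95, 0.77 to 1.10), ZNF138 (0.88, 0.57 to 1.23) and ZNF354A (0.83, 0.57 to 1.10), and the falls of ZNF668 (-1.25, -1.62 to -0.72), ZNF232 (-1.25, -1.61 to -0.97), ZNF747 (-1.12, -1.51 to -0.82), ZNF441 (-1.02, -1.12 to -0.94) and ZNF777 (-1.02, -1.41 to -0.52), each lost the call without 2 or more of the 4 libraries. ZNF703, ZNF354A and ZNF441 were still called under the GC and length correction and the rest of these 10 were not. ZNF747 and ZNF768 overlap by 2111 bases on chromosome 16, 1 of 5 overlapping pairs among the 306 genes, and how reads in such overlaps were counted was not given in the sources used here.

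SK-N-DZ gave the largest number of calls that held in every leave-out, 14 among the ZNF genes named by the rule. ZNF525 (chr19:53365705-53386590) had 10.6 and 8.84 CPM with BRM014, against 33.5 and 39.1 CPM with DMSO (-1.89, SE 0.47, adjusted p = 0.00129). ZNF232 (chr17:5105734-5123116) stood at 30.6 and 32.8 CPM with BRM014 and 98.2 and 79.3 CPM with DMSO (-1.48, SE 0.35, adjusted p = 0.000695). ZNF24 (chr18:35332227-35344420), a SCAN-domain factor and one of the most abundant of these RNAs, rose to 851 and 789 CPM with BRM014, against 592 and 576 CPM with DMSO (0.49, SE 0.10, adjusted p = 6.38e-05), but its estimate was -0.01 under the GC and length correction. ZNF622 (chr5:16451519-16465800), which acts in the maturation of the large ribosomal subunit, had 50.5 and 37.9 CPM with BRM014 and 100 and 95.3 CPM with DMSO (-1.15, SE 0.29, adjusted p = 0.00175), lost without the second BRM014 library (-1.37 to -0.95). The falls of ZNF616 (-1.20) and ZNF468 (-1.18) were lost without the first BRM014 library, and without the second BRM014 or first DMSO library, over leave-out ranges of -1.64 to -0.88 and -1.64 to -0.83.

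The response to BRM014 differed among the 3 lines in 12 ZNF genes, 3.92% of them beside 6.47% of all genes (edgeR, 1 test of the difference over all 3 lines, adjusted over all genes). ZNF704 (chr8:80628451-80884419), a relative of ZNF395, gave the smallest p. It had 212 and 212 CPM in IMR-32 with BRM014 and 385 and 389 CPM with DMSO (-0.87, SE 0.13, adjusted p = 2.49e-07). In KELLY it stood at 580 and 528 CPM with BRM014, against 963 and 868 CPM with DMSO (-0.73, SE 0.11, adjusted p = 1.41e-07). In SK-N-DZ the groups overlapped, at 201 and 246 CPM with BRM014 and 199 and 220 CPM with DMSO (0.09, adjusted p = 0.697), and the difference among lines had an adjusted p of 8.18e-05. ZNF804A (chr2:184598529-184939492), a psychiatric risk gene, followed the same pattern. Its log2 change was -0.71 for IMR-32 and -0.60 for KELLY. For SK-N-DZ it was 0.34, where 237 and 254 CPM with BRM014 stood beside 201 and 186 CPM with DMSO (adjusted p = 0.148 in SK-N-DZ, 0.0022 for the difference). Its IMR-32 call was lost without either second library (-1.03 to -0.37) and its KELLY call without the second BRM014 or first DMSO library (-0.70 to -0.51), while the difference among lines held in all 12 leave-outs for ZNF704 and ZNF804A.

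ZNF608 (chr5:124636915-124748824) changed direction between lines. It had 26.5 and 23.9 CPM in IMR-32 with BRM014, against 57.4 and 45.8 CPM with DMSO (-1.04, SE 0.32, adjusted p = 0.0162), lost without either BRM014 or the first DMSO library (-1.19 to -0.87). In SK-N-DZ it had 105 and 93.5 CPM with BRM014 and 35.9 and 56.2 CPM with DMSO (1.10, SE 0.23, adjusted p = 0.000185), in every leave-out. In KELLY, where it was most abundant, 242 and 329 CPM with BRM014 overlapped 260 and 240 CPM with DMSO (0.19, adjusted p = 0.58). The difference among lines had an adjusted p of 0.000145 and held in all 12 leave-outs. Its paralog ZNF609 (chr15:64459578-64686068) rose in KELLY alone of the 3 lines by the call, to 240 and 215 CPM with BRM014, against 173 and 135 CPM with DMSO (0.55, adjusted p = 0.00275; difference among lines 0.0448); the KELLY call was lost without the first BRM014 or second DMSO library (0.40 to 0.75), and the difference held in 5 of 12 leave-outs.

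ZNF480 (chr19:52297169-52325922) and ZNF124 (chr1:247121975-247172379), both KRAB-pattern genes, fell in SK-N-DZ. ZNF480 had 51.8 and 34.1 CPM there with BRM014 and 80.9 and 103 CPM with DMSO (-1.10, SE 0.24, adjusted p = 0.000243), beside 175 and 233 CPM with BRM014 and 214 and 187 CPM with DMSO in IMR-32 (0.03). ZNF124 stood at 63.8 and 58.1 CPM in SK-N-DZ with BRM014, against 167 and 121 CPM with DMSO (-1.24, SE 0.20, adjusted p = 7.57e-07), with uncalled changes of -0.11 in IMR-32 and -0.40 in KELLY. Their differences among lines had adjusted p values of 0.000523 and 0.00609 and held in 12 and 10 of 12 leave-outs. For ZNF217 the difference had an adjusted p of 0.000179, from the changes given above, and was lost without the first KELLY DMSO library (adjusted p = 0.156). ZNF805, ZNF587, ZNF566, ZNF33A and ZNF519 make up the rest, at adjusted p values of 0.0105 to 0.0451. Of these, ZNF805 was called higher in IMR-32 (0.63, leave-outs 0.52 to 0.68) and in SK-N-DZ (0.73, 0.31 to 1.07). Both of its calls were lost in some leave-outs and passed under the GC and length correction.

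Auxin and BRM014 were compared in the IMR-32 background, where the groups share no libraries but differ in agent, cell line and vehicle. Of the 16 genes called higher in IMR-32 with BRM014, 14 had an auxin estimate of the same sign, as had 26 of the 29 called lower. The shares were 87.5% and 89.7%, beside 82.6% and 85.1% of all genes so called. Of the KELLY calls 19 of 30 higher and 10 of 11 lower shared the sign, and of the SK-N-DZ calls 15 of 24 higher and 21 of 26 lower. Only ZNF217, among the 45 called in IMR-32, was also called with auxin. A test of the BRM014 change minus the auxin change passed for 4 ZNF genes, 1.31% beside 1.95% of all genes (1.06% higher and 0.887% lower). It was 0.69 (SE 0.15, adjusted p = 0.00336) for ZNF217, -0.91 (SE 0.23, adjusted p = 0.0137) for ZNF367, -1.59 (SE 0.41, adjusted p = 0.0178) for ZNF530 and -0.88 (SE 0.18, adjusted p = 0.000811) for ZNF704. ZNF704 had 295 and 251 CPM with auxin and 263 and 277 CPM with ethanol (0.01), and ZNF530 had 91.2 and 99.8 CPM with auxin and 83.4 and 110 CPM with ethanol (-0.02). The difference for ZNF704 held in all 8 leave-outs; that for ZNF217 was lost without the first IMR-32 DMSO library (0.60 to 0.76), that for ZNF367 in 3 of 8 (-1.06 to -0.81; without the first IMR-32 BRM014, first IMR-32 DMSO or second auxin library), and that for ZNF530 in 5 of 8 (-1.83 to -1.43; without either IMR-32 BRM014, the first IMR-32 DMSO, the first ethanol or the second auxin library). ZNF574 (chr19:42068477-42081552), the only ZNF gene called lower with auxin, had 83.0 and 70.2 CPM with auxin and 120 and 137 CPM with ethanol (-0.75, SE 0.22, adjusted p = 0.0467); its call was lost in each of the 4 leave-outs (-0.87 to -0.64), with DESeq2 and under the correction (-0.60). ZNF574 also fell in SK-N-DZ with BRM014, at 83.7 and 58.1 CPM, against 161 and 140 CPM with DMSO (-1.09, adjusted p = 0.000241), a call lost under the correction (-0.58).

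The encoded proteins divide the genes in a way the count rule did not use. The core letters of the KRAB A box (D and V, 3 residues, F, 3 residues, E and W) were sought in translated coding sequences. They were found in 181 genes and not in 120, and 5 had no coding sequence. A box that departs from these letters misses the pattern, so no match does not mean no KRAB domain. The 9 ZNF genes from ZNF45 to ZNF180 on chromosome 19 all lacked a match. Among the 181, 26 rose and 22 fell in the mean over lines (26.5%), and among the 120 without a match 22 rose and 22 fell (36.7%), beside 30.2% of all genes. In KELLY 11 rose and 3 fell of the 181 (7.73%), against 19 and 8 of the 120 (22.5%), beside 11.6% of all genes. Under the GC and length correction the 181 had 10 higher and 61 lower in the mean over lines and 4 and 11 in KELLY. The 120 then had 11 and 39 in the mean and 5 and 10 in KELLY. Of all genes under that correction, 8.69% were higher and 15.5% lower in the mean, and 4.11% and 5.49% in KELLY. With auxin none of the 181 was called by edgeR or DESeq2, with 4 higher and 4 lower at an unadjusted p under 0.05 in edgeR and 4 and 3 in DESeq2. Those unadjusted counts do not by themselves show a change. The median vehicle count was 113.25 with the pattern and 145.56 without it, so the groups differ in the depth behind each gene. By number of C2H2 fingers, from 0 to 33 with a median of 11, the mean effect was called in 11 of 24 genes with 0 to 3 fingers (45.8%), 29 of 88 with 4 to 9 (33.0%), 36 of 115 with 10 to 14 (31.3%) and 16 of 74 with 15 or more (21.6%). Of all genes 30.2% were called, and of those with the same vehicle minimum 42.6%. Median vehicle counts in these classes were 181.0, 140.81, 116.38 and 104.0.

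By position, 144 of the genes lie on chromosome 19, with 21 on chromosome 7, 17 on chromosome 16, 14 on chromosome 1 and 9 on chromosome 8. On chromosome 19, 18 rose and 17 fell in the mean over lines (24.3%), and of the 162 elsewhere 30 rose and 27 fell (35.2%), beside 30.2% of all genes called. In KELLY there were 5 higher and 2 lower of 144 on chromosome 19 (4.86%) and 25 and 9 of 162 elsewhere (21.0%), beside 11.6% of all genes. Median vehicle counts were 108.69 on chromosome 19 and 143.5 elsewhere. Under the GC and length correction chromosome 19 had 5 higher and 50 lower in the mean and 0 and 10 in KELLY, and the other chromosomes 16 and 51 in the mean and 9 and 11 in KELLY. The shares of all genes under it were 8.69% higher and 15.5% lower in the mean, and 4.11% and 5.49% in KELLY. Grouping neighbours under 1000000 bases apart gave 16 runs on chromosome 19. In the run of 25 genes from ZNF175 to ZNF331 (chr19:51571283-53580269), all with the KRAB pattern, 5 genes fell in SK-N-DZ (9.55% of all genes fell there), where the median was -0.42, while the median was -0.22 in IMR-32 and 0.15 in KELLY. The largest run, of 36 genes from ZNF542P to ZNF132 (chr19:56368099-58440153), had 4 higher and 1 lower in SK-N-DZ, beside 9.88% and 9.55% of all genes. In IMR-32 it had 1 higher and 4 lower, beside 6.26% and 6.57%. Both runs were picked from the 16 after their values were seen. Neighbouring ZNF genes often arose by duplication, and reads that match several copies may have been dropped or shared between them, so values of close copies are uncertain.

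Paralog sets fixed by name moved unevenly. ZNF148 (ZBP-89) and ZNF281 (ZBP-99), GC-box factors, rose together in KELLY (0.38 and 0.39) and SK-N-DZ (0.38 and 0.36) and were not called in IMR-32 (0.28 and -0.01). All 4 of these calls ended under the GC and length correction, where ZNF148 turned to -0.22 for SK-N-DZ and -0.03 for KELLY. Each call was lost in at least 2 leave-outs (0.36 to 0.39 and 0.32 to 0.46 for ZNF148, 0.24 to 0.56 and 0.33 to 0.39 for ZNF281). Among the Z3 complex genes ZNF532, ZNF592 and ZNF687, ZNF687 fell in SK-N-DZ (-0.92, adjusted p = 0.00246; lost without the second BRM014 library at -1.08 to -0.77 over the leave-outs, and under the correction at -0.54) and the others were not called in any line. ZNF395 rose in KELLY (0.73, adjusted p = 0.0213) and SK-N-DZ (0.83, adjusted p = 0.00436) while its relative ZNF704 fell in IMR-32 and KELLY; the KELLY call of ZNF395 was lost in each leave-out (0.61 to 0.88) and the SK-N-DZ call without either second library (0.67 to 0.96). ZNF703 rose in IMR-32 and KELLY while its relative ZNF503 had uncalled changes of -0.60 and 0.36. ZNF384, also named for its paralog set, fell in IMR-32 (-0.61). That call was lost without the first BRM014 or first DMSO library (-0.86 to -0.30) and under the correction (-0.44).

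A list was made of the KAP1, HUSH, NuRD and H3K9 methylation machinery, which holds the co-repressors of KRAB zinc finger proteins. It also took in the DNA methylation genes UHRF1, DNMT1, DNMT3A and DNMT3B, and ATRX, DAXX, KDM1A and ZMYM2. Of its 34 tested genes, IMR-32 had 4 higher and 5 lower, KELLY 7 and 4, and SK-N-DZ 6 and 6. Together these were 26.5%, 32.4% and 35.3%, beside 20.0%, 17.2% and 29.4% of genes with the same vehicle minimum. The median vehicle count of the list was 216.62, against 130.62 for genes with that minimum. UHRF1 alone of the 34 was called with auxin. In the mean over lines 8 rose and 9 fell (50.0%, beside 30.2% of all genes and 42.6% of those with the same vehicle minimum). UHRF1, which maintains DNA methylation through replication, fell most. It had 36.8 and 63.2 CPM in IMR-32 with BRM014 and 164 and 166 CPM with DMSO (-1.71, SE 0.22, adjusted p = 2.34e-09), 90.2 and 99.9 CPM in KELLY with BRM014 and 160 and 135 CPM with DMSO (-0.64, SE 0.18, adjusted p = 0.00789), and 45.2 and 61.9 CPM in SK-N-DZ with BRM014 and 261 and 272 CPM with DMSO (-2.31, SE 0.20, adjusted p = 2.05e-16). Auxin took it to 123 and 135 CPM, against 247 and 211 CPM with ethanol (-0.82, SE 0.17, adjusted p = 0.000732). These calls were lost only without the first KELLY BRM014 or first KELLY DMSO library (-0.75 to -0.50) and without the first ethanol library (-0.94 to -0.71).

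TRIM28 itself had 95.8 and 118 CPM in IMR-32 with BRM014, against 183 and 135 CPM with DMSO (-0.58, adjusted p = 0.0182). In KELLY it had 208 and 213 CPM with BRM014 and 348 and 281 CPM with DMSO (-0.58, adjusted p = 0.0017), and in SK-N-DZ 158 and 171 CPM with BRM014 and 271 and 313 CPM with DMSO (-0.83, adjusted p = 1.7e-05). All 3 calls ended under the GC and length correction (-0.18, -0.15 and -0.22), the IMR-32 call also without the first BRM014 or first DMSO library (-0.78 to -0.35), and the KELLY call without the first DMSO library (-0.72 to -0.42). ATF7IP, the partner that stabilises SETDB1, rose by 0.65 in IMR-32 and in SK-N-DZ and by 0.38 in KELLY. The KELLY call was lost without either second library (0.29 to 0.48), and only the IMR-32 call passed under the correction. CHD4, the NuRD remodelling ATPase, fell by 0.63 in KELLY and by 0.83 in SK-N-DZ, in every leave-out and under the correction. SMARCAD1 rose by 0.51 in IMR-32 (leave-outs 0.31 to 0.62), 0.46 in KELLY (0.32 to 0.61) and 0.67 in SK-N-DZ (0.48 to 0.91). ZMYM2 rose by 0.53 in KELLY (0.39 to 0.66) and 0.86 in SK-N-DZ (0.76 to 0.95). Their IMR-32 and KELLY calls were lost in some leave-outs, and all their calls in single lines ended under the correction. SETDB1 was not called, at 95.8 and 167 CPM with BRM014 and 143 and 146 CPM with DMSO in IMR-32 and estimates of -0.14, 0.03 and 0.06 in the 3 lines.

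The base composition of the ZNF transcripts went with the direction of change. Their longest annotated transcripts had a median GC content of 42.2%, against 47.43% for all genes tested and 45.07% for those with the same vehicle minimum. Their median length was 4557.5 bases, against 3791.5 and 4348. The genes were split by GC content into 3 classes of 102 genes each. In the lowest class (median 38.21%), 25 rose and 8 fell in the mean over lines. In the middle class 14 rose and 11 fell, and in the highest (median 49.59%) 9 rose and 25 fell. All genes tested leaned the same way by GC range. In the lowest range 34.7% were higher and 4.49% lower, in the middle 21.5% and 8.34%, and in the highest 6.21% and 21.7%. Among genes with the same vehicle minimum the shares were 42.6% and 5.67%, 26.8% and 12.3%, and 9.15% and 32.4%. In the lowest and middle ranges a smaller share of the ZNF genes rose than of either set. Across the 306 genes the mean log2 change had a Pearson r of -0.29 and a Spearman rho of -0.27 with GC content, as a description over genes that share the same 12 libraries. Removing from each library a smooth trend of counts on GC content and length, fitted over all genes, left 17 of the 48 higher calls and 30 of the 44 lower calls, turned the sign of 10 of the 48, and added others, for 21 higher and 101 lower. The medians of the ZNF genes became -0.31 for SK-N-DZ, -0.27 for IMR-32, -0.08 for KELLY and -0.10 for auxin. Over all genes they were -0.08, -0.09, -0.04 and -0.01. By its construction the correction also removes any treatment effect that runs with GC content or length. Whether the trend comes from the libraries or the cells was not tested.

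**Figure D4:**
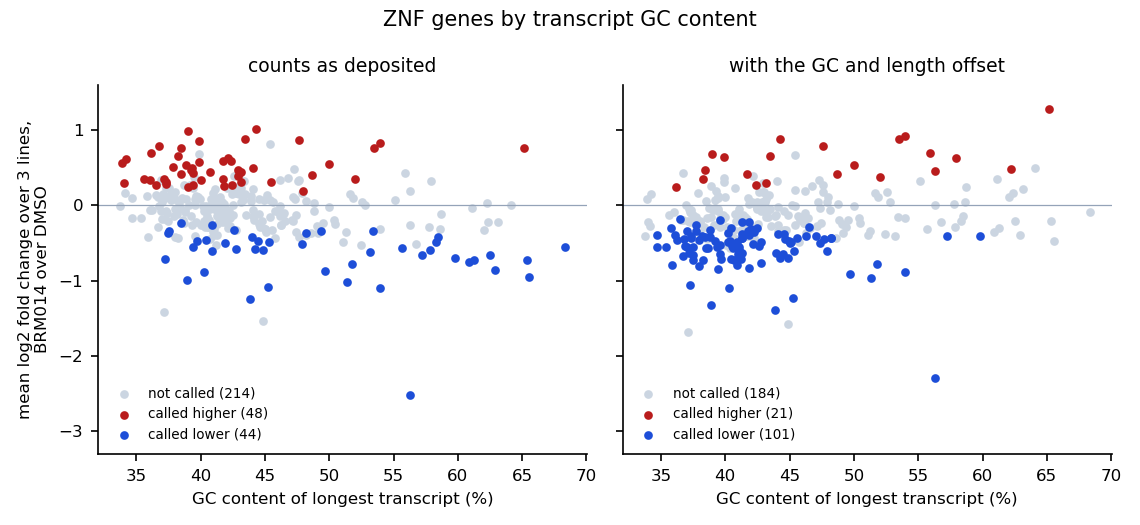
Mean log2 change over the 3 lines, BRM014 over DMSO, against the GC content of the longest transcript in percent, for the 306 ZNF genes with counts as deposited (left) and with the GC and length correction (right); each point is a gene. On the left 48 genes are called higher and 44 lower, on the right 21 and 101.

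In vehicle cells, the levels that chose the genes differed widely between lines and are given as a description. The highest group mean was in the SMARCA4-mAID line for 141 genes, in IMR-32 for 81, in SK-N-DZ for 55 and in KELLY for 29, and the lowest was in KELLY for 148, in SK-N-DZ for 99, in IMR-32 for 39 and in the SMARCA4-mAID line for 20. Highest and lowest group means lay at least 2-fold apart for 161 genes, at least 4-fold for 36 and at least 10-fold for 12, at a median ratio of 2.07. Per kilobase of longest transcript, the highest levels of labelled RNA were those of ZNF146 at 153.9 CPM, ZNF141 at 102.0, ZNF22 at 95.66, ZNF664 at 92.25, ZNF124 at 89.5, ZNF281 at 87.48, ZNF24 at 87.34 and ZNF670 at 78.91, each a mean over vehicle groups. How reads entered a count, and by which annotation, was not given in the sources used here, so this order between genes is only a rough description. Among these 8, ZNF22 and ZNF670 were not called in any treatment comparison, and ZNF146 and ZNF664 only in KELLY, at 0.29 and 0.32, calls lost in each leave-out (0.24 to 0.34 and 0.27 to 0.35) and under the correction.

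A few genes were near absent from a line. ZNF518B had 0 counts in both SMARCA4-mAID ethanol libraries and both auxin libraries, 2.94 and 1.83 CPM in parental IMR-32, 80.9 and 63.9 CPM in KELLY and 93.4 and 108 CPM in SK-N-DZ with their vehicle, at least 102-fold higher in SK-N-DZ than a floor of 3 counts over the SMARCA4-mAID group. ZNF727 likewise had no count with ethanol in the SMARCA4-mAID line, against 30.9 and 35.7 CPM in parental IMR-32, 10.2 and 1.52 CPM in KELLY and 85.1 and 90.3 CPM in SK-N-DZ, at least 88.9-fold above the same floor in SK-N-DZ. ZNF239 ran the other way within the IMR-32 background, at 69.6 and 58.5 CPM in the SMARCA4-mAID line and 4.41 and 0.915 CPM in parental IMR-32. ZNF486 had 0.600 and 3.04 CPM in KELLY and 128 and 105 CPM in IMR-32, and ZNF578 had 0 and 0.761 CPM in KELLY and 133 and 107 CPM in IMR-32, all with DMSO. ZNF876P, a transcribed pseudogene, had 1 count in all in KELLY with DMSO and 73.0 and 90.6 CPM in the SMARCA4-mAID line with ethanol.

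**Figure D5:**
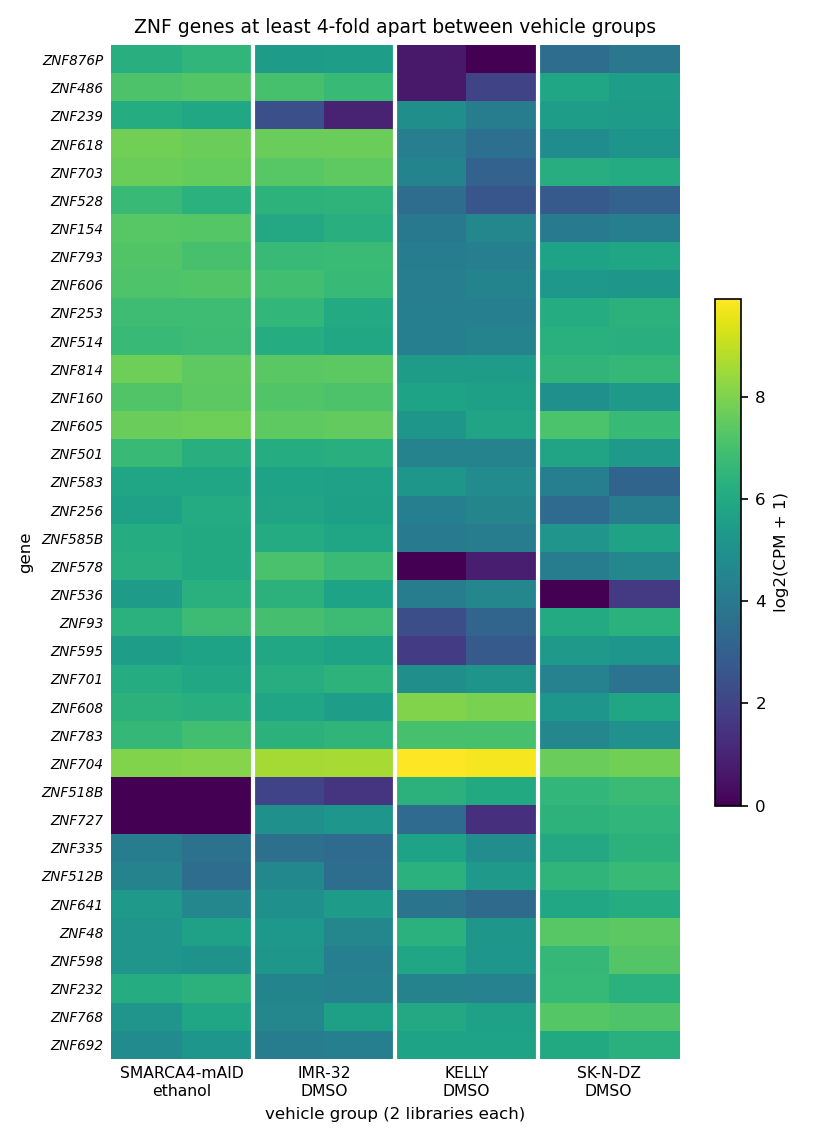
Levels of the 36 ZNF genes whose highest and lowest vehicle group means lay at least 4-fold apart, as log2(CPM + 1) in each of the 8 vehicle libraries (columns); rows are genes. ZNF518B and ZNF727 are dark in the SMARCA4-mAID libraries, ZNF486, ZNF578 and ZNF876P in KELLY, ZNF536 in SK-N-DZ and ZNF239 in parental IMR-32.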

How the data were processed

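New RNA was measured in 18 libraries, 16 of them labelled. The deposited files hold raw counts per gene symbol for each library; the submitters' processing notes name HISAT, HTSeq, DESeq2 and hg38 without versions or roles, and per the file headers and values the files are not normalized. How a converted read entered a count, the annotation and the strand setting were not given in the sources used here, so reads from overlapping, antisense or near-identical ZNF genes cannot be told apart. Reads assigned to no counted feature, 46.4% to 57.4% of the labelled libraries' reads, stayed out of library sizes. Whether introns were counted was not given in the sources used here, so such reads may lie inside genes.

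The 16 labelled libraries entered a fit of group means (edgeR 4.0.16, quasi-likelihood test, TMM factors, filterByExpr, 8 residual degrees of freedom) in R 4.3.3, with Benjamini-Hochberg adjustment over 12853 genes and a threshold of 0.05. Simulated data with known changes were used to check the script. They had 100 genes changed at each size among 12417 tested, with 1 spread for all genes (coefficient of variation 0.143). The changed genes all had a mean of at least 50 counts. A log2 fold change of 1 in KELLY was recovered for 69% of changed genes and of 0.5 for 4%. Alternatives were DESeq2 1.42.0, median-of-ratios size factors, other filters and minimums, own libraries alone, a replicate block, leave-outs, a correction for transcript GC content and length (splines of 5 degrees of freedom each on the longest GENCODE 29 transcript) and, added after seeing the data, thinning to equal depth.

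Gene positions and promoters are RefSeq's on GRCh38.p14; 272 of 306 genes matched a promoter. The KRAB and finger patterns were read in translated GENCODE 29 coding sequences of 301 genes, since no protein table was used here. The genes and lists were chosen with earlier results of these data known. Genes were named by rule. It took up to 8 highest and 8 lowest called changes per comparison with groups not overlapping. It also took the 8 smallest p values of each test of a difference, and the paralog sets. The 8 highest vehicle levels per kilobase and the 8 largest vehicle ratios were added. Last came the 6 genes of the co-repressor list with the smallest p, and 3 genes on either side of the minimum. ZNF131 and ZNF689, named by the test of BRM014 minus auxin, are given no values here. ZNF33A, ZNF519, ZNF566, SETDB1, ZNF793 and the genes at the ends of chromosome 19 runs were named after their values were seen.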

Additional observations from a re-analysis of the deposited data

Results flagged for a closer look

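The BRM014 effect differed among IMR-32, KELLY and SK-N-DZ in 12 ZNF genes by the test of the difference itself (edgeR, adjusted over all genes tested). The adjusted p was 8.18e-05 for ZNF704, 0.000145 for ZNF608, 0.000179 for ZNF217, 0.000523 for ZNF480, 0.0022 for ZNF804A, 0.00609 for ZNF124 and 0.0105 for ZNF805. For ZNF587 (changes of -0.33 in IMR-32, -0.05 in KELLY and 0.60 in SK-N-DZ) it was 0.0216, and for ZNF566 (-0.74, 0.29 and -0.11) 0.022. For ZNF33A (-0.42, 0.37 and -0.23) it was 0.0366, for ZNF609 (-0.11, 0.55 and 0.02) 0.0448 and for ZNF519 (-0.11, 0.37 and -0.68) 0.0451. The differences of ZNF480, ZNF608, ZNF704 and ZNF804A held in each of the 12 leave-outs and the 9 other alternatives. Of the weaker ones, that of ZNF519 held in 3 of 12 leave-outs and 4 of 9 alternatives, and that of ZNF609 in 5 of 12 and 3 of 9; their highest adjusted p values over the leave-outs were 0.26 and 0.336.

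The BRM014 change in parental IMR-32 differed from the auxin change in SMARCA4-mAID IMR-32 in 4 ZNF genes, by log2 differences (BRM014 minus auxin) of 0.685 in ZNF217, -0.91 in ZNF367, -1.585 in ZNF530 and -0.878 in ZNF704. The agents, lines and vehicles differ together in this comparison and cannot be told apart.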

How the results depend on the processing

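The correction for transcript GC content and length moved most counts. ZNF genes called higher and lower with it (and with it and the replicate block) were 10 and 47 (9 and 48) for IMR-32, 9 and 21 (9 and 21) for KELLY, 14 and 63 (14 and 63) for SK-N-DZ and 21 and 101 (20 and 104) for the mean over lines; the difference among lines was called in 21 (23), the BRM014 minus auxin difference was higher in 2 (2), and 0 (0) fell with auxin (edgeR, 20 at an unadjusted p under 0.05). It reversed ZNF148 to -0.032 in KELLY, -0.215 in SK-N-DZ and -0.13 in the mean (-0.031, -0.216 and -0.13 with the block) and ZNF24 to -0.065, -0.011 and -0.056 (-0.064, -0.011 and -0.057). The cause was not tested.

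KELLY higher calls were 18 with no filter on low counts and 17 after thinning, and KELLY lower calls 5 at a minimum of 100 counts and 7 with the minimum taken over all 16 libraries. The difference among lines was called in 7 genes after thinning. No gene (0) fell with auxin in DESeq2 (10 at an unadjusted p under 0.05). The BRM014 minus auxin difference was higher in 2 genes with median-of-ratios size factors, 2 with the replicate block, 3 with own libraries alone and 3 with DESeq2. Same-numbered libraries did not deviate together over genes (correlations of -0.034 to 0.011). Counting noise enters these deviations, so this cannot show whether equal numbers mark a shared culture or day. The replicate block moved no other count by over 1.5 times.

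Leaving out each library in turn gave 7 to 10 higher and 13 to 22 lower calls for IMR-32, 7 to 18 and 5 to 11 for KELLY, 11 to 23 and 19 to 20 for SK-N-DZ, 0 to 1 and 0 to 0 with auxin (edgeR, 6 to 10 higher and 7 to 12 lower at an unadjusted p under 0.05), and 38 to 45 and 38 to 50 in the mean. The difference among lines was called in 9 to 15 and the BRM014 minus auxin difference in 0 to 2 higher and 1 to 3 lower. A group left with 1 library is assumed to vary like the others. Of 169 named values, DESeq2 kept the call of 163, thinning 146 and the correction 103. The test on simulated KELLY data recovered 69% of genes changed by 1 on the log2 scale and 4% of those changed by 0.5. Few genes were changed there, which makes the adjusted threshold stricter than in the real KELLY data, where 1485 genes were called. These shares are thus not the power in the real data. How many smaller changes are missed at 724913 to 1740475 counts per library was not measured.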

Other observations

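Other zinc finger families at the same vehicle minimum moved in the mean over the 3 lines as follows. ZBTB genes, which pair a BTB domain with zinc fingers, had 6 of 23 higher and 4 lower (43.5%), at a median log2 change of 0.10. Genes named ZFP had 5 of 15 higher and 2 lower (46.7%), ZKSCAN genes 2 of 6 higher and 1 lower (50.0%), and ZSCAN genes 1 of 8 higher and 1 lower, beside 42.6% called among all genes with that minimum. The 169 ZNF symbols tested below the minimum had 12 higher and 15 lower, beside 14.8% and 15.3% of all genes tested. Their median vehicle count was 24.75, against 117.81 for the 306 genes above it.

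ZNF793 had the highest share of unlabelled counts among ZNF genes with at least 50 counts in the KELLY DMSO libraries, 13.2%, from 3 and 4 counts without label and a sum of 53 counts with label. Over all genes that share was 0.348%.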
